A study of Mus musculus with 6 samples.

Results

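Aminoacyl-tRNA synthetases, the enzymes that load each amino acid onto its transfer RNA, were measured by 34 genes of 19938 tested in mouse liver. The rule that picks them uses names and no measured value: every protein-coding gene whose symbol is that of a synthetase and that has a probe set of its own. Of the 34, 18 encode cytosolic enzymes or subunits and 16, whose symbols end in 2, encode mitochondrial ones. Aars was left out because its probe set is shared with another gene, and Dars is not analysed here.

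The samples were livers of male C57BL/6 mice, an inbred strain, which the labels give as 6 weeks old with 1 week of acclimatization on chow. Mice of the first group then received chow with 1% powdered cholesterol (arrays CH1 to CH3). Mice of the second group, on arrays LE1 to LE3, received chow with lovastatin (100 mg per 100 g) and ezetimibe (21 mg per 100 g). The first drug inhibits HMG-CoA reductase, which makes mevalonate for sterols, and the second keeps the intestine from absorbing sterol. The strain, sex, age and base diet were shared by both groups. A group kept on chow alone is not analysed here, so no value tells a rise under 1 diet from a fall under the other. The labels call the arrays biological replicates without tying them to single animals or saying whether animals were pooled, and p-values therefore measure the spread between 3 arrays per diet.

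A cell keeps separate synthetases for the cytosol, where most proteins are made, and for the mitochondrion, which translates the few proteins of its own genome. Several cytosolic synthetases sit together in a large multisynthetase complex held by the scaffold proteins AIMP1, AIMP2 and EEF1E1. When amino acids run short or the endoplasmic reticulum is stressed, the transcription factor ATF4 raises genes of amino acid uptake and synthesis and many cytosolic synthetase genes, through a DNA element that it binds together with C/EBP-type partners. In liver, which secretes much of the protein of blood plasma, these enzymes serve a high rate of translation.

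Levels are given as log2(intensity + 1), from probe sets whose array medians lay between 158 and 163. The array LE3 stood apart within its group for the synthetases. It was the highest of the 3 lovastatin and ezetimibe arrays for 17 of 18 cytosolic and 11 of 16 mitochondrial genes, against 52.8% of all genes, and CH2 was the highest of the cholesterol arrays for 0 of 18 cytosolic genes, against 34.7% of all genes. Relative to the mean of the cholesterol arrays, the mean log2 level of the cytosolic genes was 0.04, 0.06 and 0.16 on LE1, LE2 and LE3, and that of the mitochondrial genes -0.09, -0.07 and 0.01. The same mean over all genes was 0.01, -0.02 and 0.04.

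With lovastatin and ezetimibe, the cytosolic synthetases for glycine (Gars), tyrosine (Yars), cysteine (Cars) and isoleucine (Iars) were 1.22- to 1.30-fold higher than with cholesterol. The mitochondrial asparagine enzyme (Nars2) was at 0.74 of its level with cholesterol. Throughout, rose and fell mean higher and lower than with cholesterol. The other 29 genes did not pass the test. Limma was used on log2(intensity + 1), with Benjamini-Hochberg adjustment over all 19938 genes and a threshold of 0.05. By that test 5 of 34 synthetases (14.7%) were called, beside 12.1% of all genes, a share close to that of genes in general. By direction, 4 of 18 cytosolic genes (22.2%) were higher, beside 7.01% of all genes, and 1 of 16 mitochondrial genes (6.25%) was lower, beside 5.08% of all genes. No cytosolic gene was lower and no mitochondrial gene was higher by this test. An unadjusted p under 0.05 was found for 7 of 18 cytosolic and 5 of 16 mitochondrial genes, beside 4941 of all 19938 genes. Without LE3 the same 5 genes passed, in the same directions. All fold changes are lovastatin and ezetimibe over cholesterol, and a fold on this scale understates the change of dim genes.

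The DNA around the start of transcription is shown with the element of ATF4 and its C/EBP-type partners because 3 of the genes that rose, Gars, Iars and Yars, carry a match to it. RefSeq promoter windows (GRCm38.p6, 250 bases before to 50 after the annotated start) were held for 25 of the 34 members, and not for Cars, Hars, Hars2, Lars, Nars, Pars2, Rars, Vars and Wars. Each stretch is 30 bases long, 5′ to 3′ on the strand of the gene, with the match to TGATGNAA in capitals, which reads TTNCATCA where the element lies on the opposite strand. Asns, the asparagine synthetase gene and a well-known ATF4 target, is shown for comparison, and Tars, the cytosolic threonine enzyme, as the member that carries the element and was not higher.
Gars: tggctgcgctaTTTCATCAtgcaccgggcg
Iars: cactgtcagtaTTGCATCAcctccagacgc
Yars: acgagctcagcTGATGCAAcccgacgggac
Tars: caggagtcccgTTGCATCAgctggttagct
Asns: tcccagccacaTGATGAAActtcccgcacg

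These stretches lie at chr6:55037960-55037989 (plus strand) for Gars, chr13:49682126-49682155 (plus strand) for Iars, chr4:129189895-129189924 (plus strand) for Yars, chr15:11399655-11399684 (minus strand) for Tars and chr6:7693214-7693243 (minus strand) for Asns. The match begins 30 bases before the annotated start in Gars, 15 before it in Tars and 23 before it in Asns. In Iars it begins at transcribed base 8 and in Yars at transcribed base 4, so it lies just inside the transcript there. Read along the element, the matches of Iars, Yars and Tars are the same, and so are those of Gars and Asns.

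Searched on both strands, TGATGNAA was found in 4 of 25 members, Gars, Iars, Tars and Yars. That is 4 of 11 cytosolic and 0 of 14 mitochondrial genes with a window, beside 3.97% of all 32851 windows of the same length and 3.65% of the tested protein-coding genes with a window. The element was searched after the members' values had been seen, and its share gets no test. The E-box CACGTG, the site of MYC-type factors, was found in 4 members, Farsb, Iars, Tars and Ears2, beside 9.58% of tested genes and 7.15% of windows. It overlaps none of the TGATGNAA matches. A sterol element and an NRF1 site were also searched and had no match in the members; their counts are not given here. No match says only that these letters are not in a window.

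Gars, which encodes the glycine enzyme of both the cytosol and the mitochondrion, changed the most among the cytosolic genes. Its log2 level was 9.99, 9.88 and 9.91 on CH1, CH2 and CH3 and 10.28, 10.32 and 10.31 on LE1, LE2 and LE3. The 3 lovastatin and ezetimibe arrays lay close together and above all cholesterol arrays. The change was log2 0.37 (SE 0.05, n = 3 arrays per diet; 1.30-fold; limma adjusted p = 0.00259). It passed in all 15 alternative settings.

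Yars, the cytosolic tyrosine enzyme, measured 9.38, 9.35 and 9.41 on the cholesterol arrays and 9.66, 9.68 and 9.81 on the others. The groups did not overlap, and LE3 was the highest array. The difference was log2 0.34 (SE 0.06, n = 3; 1.26-fold; limma adjusted p = 0.00783). Cars, the cytosolic cysteine enzyme, measured 9.01, 8.97 and 8.97 on the cholesterol arrays and 9.24, 9.26 and 9.40 on the others. Its groups did not overlap either, again with LE3 highest, and the difference was log2 0.32 (SE 0.06, n = 3; 1.25-fold; limma adjusted p = 0.0106). Both genes passed in all 15 alternatives.

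Iars, the cytosolic isoleucine enzyme and a member of the multisynthetase complex, measured 10.54, 10.54 and 10.63 on the cholesterol arrays and 10.83, 10.81 and 10.92 on the others. The groups were separate, and the difference was log2 0.28 (SE 0.06, n = 3; 1.22-fold; limma adjusted p = 0.0149). A second probe set of Iars gave the same difference, log2 0.28. The call was lost without CH1 (adjusted p = 0.0660) or CH2 (0.0520), and over all alternatives the adjusted p ran from 1.59e-05 to 0.0660.

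Nars2, the mitochondrial asparagine enzyme, was the synthetase that changed the most. It measured 9.57, 9.58 and 9.70 on the cholesterol arrays and 9.04, 9.16 and 9.38 on the others. All lovastatin and ezetimibe arrays were lower, but they spread more widely (SD 0.17, n = 3) than the cholesterol arrays (SD 0.07, n = 3), with LE3 nearest to them. It fell by 0.43 on the log2 scale (SE 0.09, n = 3; limma adjusted p = 0.0202). The call was lost without CH3 (adjusted p = 0.0607) or LE2 (0.0774), and over all alternatives the adjusted p ran from 3.13e-05 to 0.0774.

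**Figure D1:**
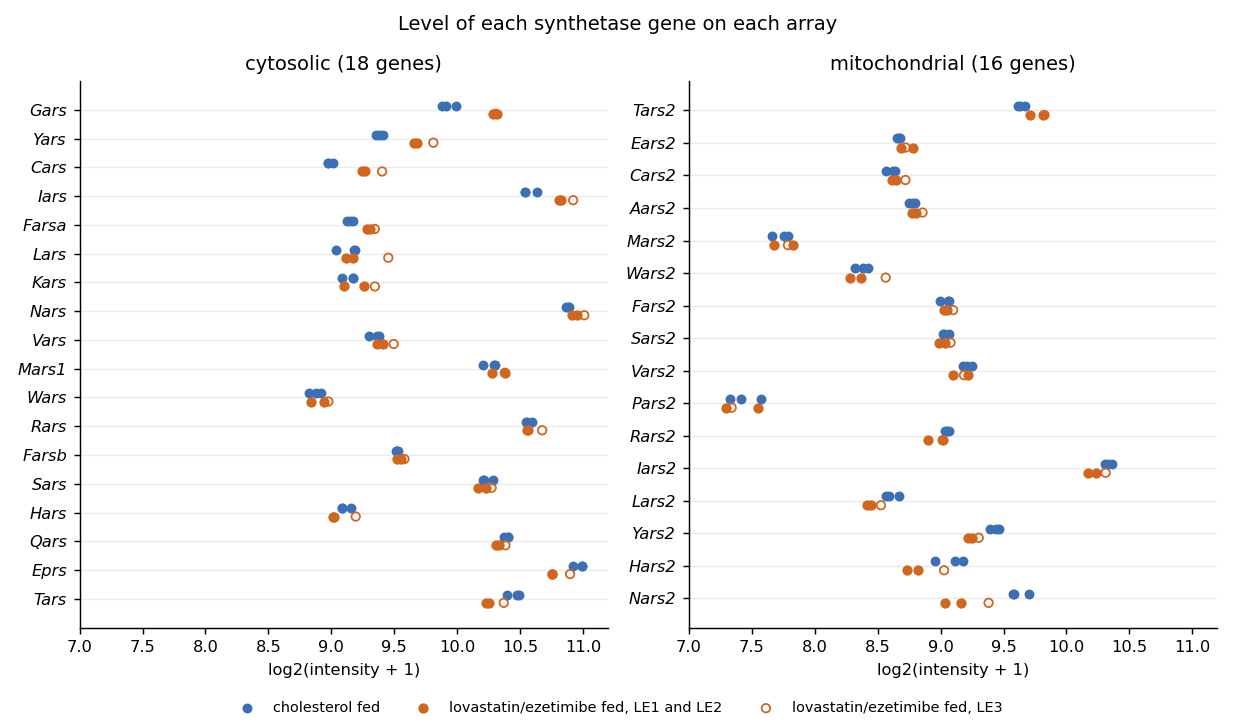
Level of each synthetase gene on each array, as log2(intensity + 1) on the horizontal axis, with cytosolic genes on the left and mitochondrial genes on the right, ordered by fold change. Blue points are the 3 cholesterol arrays, filled orange points LE1 and LE2, and open orange circles LE3. All orange points lie above the blue ones for 8 of 34 genes, among them Gars, Yars, Cars and Iars at the top (15.9% of all genes). They lie below for 6 of 34, among them Nars2 at the bottom (14.7% of all genes). LE3 is the rightmost orange point for most cytosolic genes.

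Of the synthetases that did not pass, Farsa, a subunit of the cytosolic phenylalanine enzyme, was nearest among the cytosolic genes on the higher side (log2 0.17, SE 0.05, n = 3; limma adjusted p = 0.0628). Its arrays measured 9.15, 9.12 and 9.17 with cholesterol and 9.28, 9.31 and 9.35 with lovastatin and ezetimibe, with no overlap. Farsb, the partner subunit of the same enzyme, had a change of log2 0.03 (SE 0.05, n = 3) and overlapping groups.

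Tars, the cytosolic threonine enzyme, had the lowest fold change of the cytosolic genes, log2 -0.17 (SE 0.06, n = 3; limma adjusted p = 0.114), with 10.47, 10.40 and 10.49 on the cholesterol arrays and 10.23, 10.25 and 10.37 on the others. Eprs, a fused enzyme that charges glutamate and proline and is part of the multisynthetase complex, had a change of log2 -0.17 (SE 0.06, n = 3; limma adjusted p = 0.121), with 10.99, 10.92 and 10.99 against 10.76, 10.76 and 10.90. In both genes every lovastatin and ezetimibe array lay below every cholesterol array, the opposite order from Gars, Yars, Cars and Iars.

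The other 11 cytosolic genes were Lars, Kars, Nars, Vars, Mars1, Wars, Rars, Farsb, Sars, Hars and Qars. Their changes ran from log2 -0.06 to 0.11 with SE of 0.05 to 0.09, and none passed in any alternative setting. Nars, the cytosolic asparagine enzyme and the brightest probe set of the family, had a mean log2 level of 10.92. It measured 10.88, 10.86 and 10.89 with cholesterol and 10.92, 10.96 and 11.01 with lovastatin and ezetimibe, a small shift without overlap (log2 0.08, SE 0.05, n = 3; limma adjusted p = 0.346). Kars, like Gars, gives both the cytosolic and the mitochondrial enzyme from 1 gene, here for lysine, and its groups overlapped (log2 0.09, SE 0.07, n = 3).

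Among the mitochondrial genes, Yars2, Lars2 and Hars2, the enzymes for tyrosine, leucine and histidine, had negative changes that did not pass. Yars2 measured 9.47, 9.44 and 9.39 with cholesterol and 9.21, 9.25 and 9.30 with lovastatin and ezetimibe, without overlap (log2 -0.18, SE 0.05, n = 3; limma adjusted p = 0.0621). Lars2 measured 8.67, 8.56 and 8.59 against 8.42, 8.45 and 8.53, also without overlap (log2 -0.14, SE 0.06, n = 3; limma adjusted p = 0.153). Hars2 measured 9.12, 8.96 and 9.18 against 8.73, 8.82 and 9.03, and here LE3 lay above CH2 (log2 -0.22, SE 0.09, n = 3; limma adjusted p = 0.174).

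Tars2, the mitochondrial threonine enzyme, had the highest fold change of the mitochondrial genes, with levels of 9.61, 9.63 and 9.67 against 9.82, 9.71 and 9.83 (log2 0.15, SE 0.05, n = 3; limma adjusted p = 0.136). Its value had the opposite sign to that of the cytosolic threonine enzyme Tars. The other 11 mitochondrial genes were Ears2, Cars2, Aars2, Mars2, Wars2, Fars2, Sars2, Vars2, Pars2, Rars2 and Iars2. Their changes ran from log2 -0.09 to 0.06 with SE of 0.05 to 0.09, and none passed in any alternative setting. The dimmest member was Pars2, the mitochondrial proline enzyme, at a mean log2 level of 7.42, with overlapping groups (7.41, 7.57 and 7.33 against 7.29, 7.55 and 7.34).

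**Figure D2:**
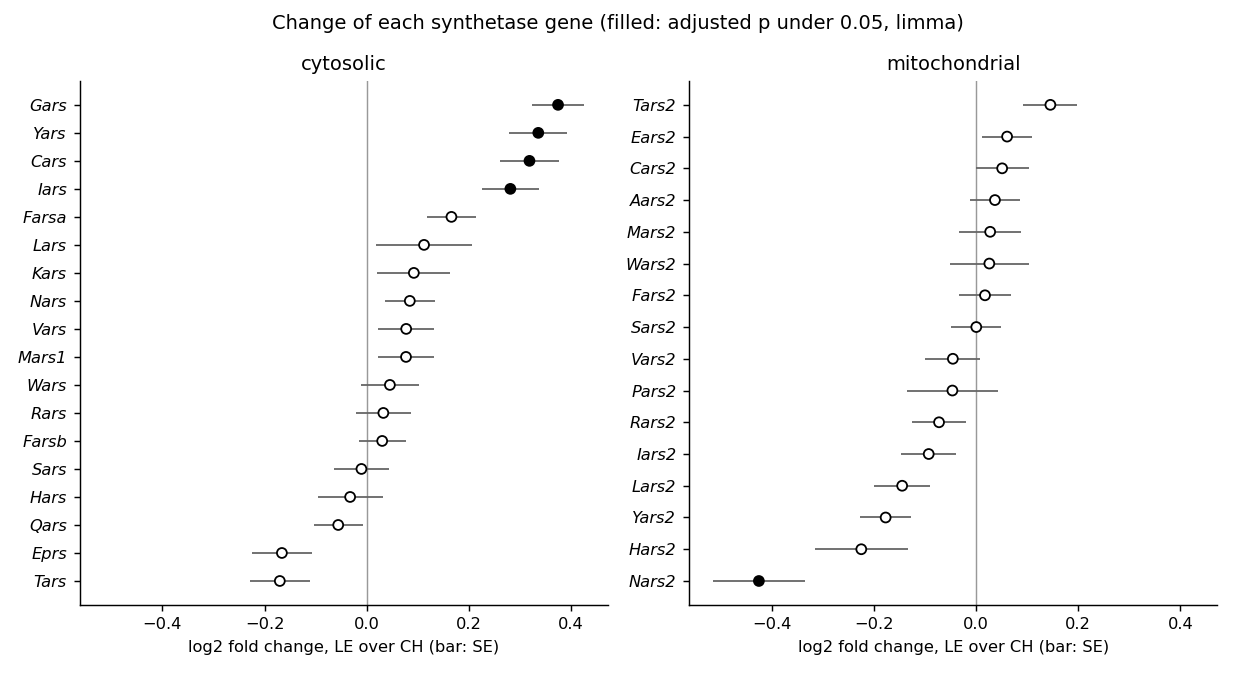
Log2 fold change of lovastatin and ezetimibe over cholesterol for each synthetase gene, with its standard error as a bar (3 arrays per diet) and filled points for a limma adjusted p under 0.05. The 4 filled cytosolic genes lie between 0.28 and 0.37, and Nars2 at -0.43 is the filled mitochondrial gene.

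Each compartment was spread around its own centre. The median change was log2 0.08 over the 18 cytosolic genes (13 positive, 5 negative) and -0.02 over the 16 mitochondrial genes (8 positive, 8 negative), beside -0.00 over all genes tested (9632 positive, 10306 negative). Without LE3 the medians were 0.03 and -0.04. The lovastatin and ezetimibe arrays lay above all cholesterol arrays for 6 of 18 cytosolic genes (33.3%) and 2 of 16 mitochondrial genes (12.5%), beside 15.9% of all genes. They lay below all cholesterol arrays for 2 cytosolic (11.1%) and 4 mitochondrial genes (25%), beside 14.7% of all genes. These shares describe the lists and were not tested.

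The cytosolic and mitochondrial enzymes of the same amino acid were set side by side where either had passed, which gave 4 pairs. Yars was higher by 0.34 and Yars2 had a change of -0.18, so that the changes differed by 0.51 (SE 0.04, n = 3 arrays per diet). The SE of each difference was taken from the within-array differences alone, without limma's sharing of variance between genes. It is not on the same footing as the SE of a single gene. For asparagine, Nars at 0.08 and Nars2 at -0.43 also differed by 0.51 (SE 0.08). For isoleucine, Iars at 0.28 and Iars2 at -0.09 differed by 0.37 (SE 0.03), and for cysteine, Cars at 0.32 and Cars2 at 0.05 differed by 0.27 (SE 0.03). In every pair the within-array difference was larger on all 3 lovastatin and ezetimibe arrays than on any cholesterol array. Each pair was taken because a member of it had passed the test on these same arrays, so the differences are a description with no test; the exact permutation test of 3 arrays against 3 cannot go below p = 0.1.

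**Figure D3:**
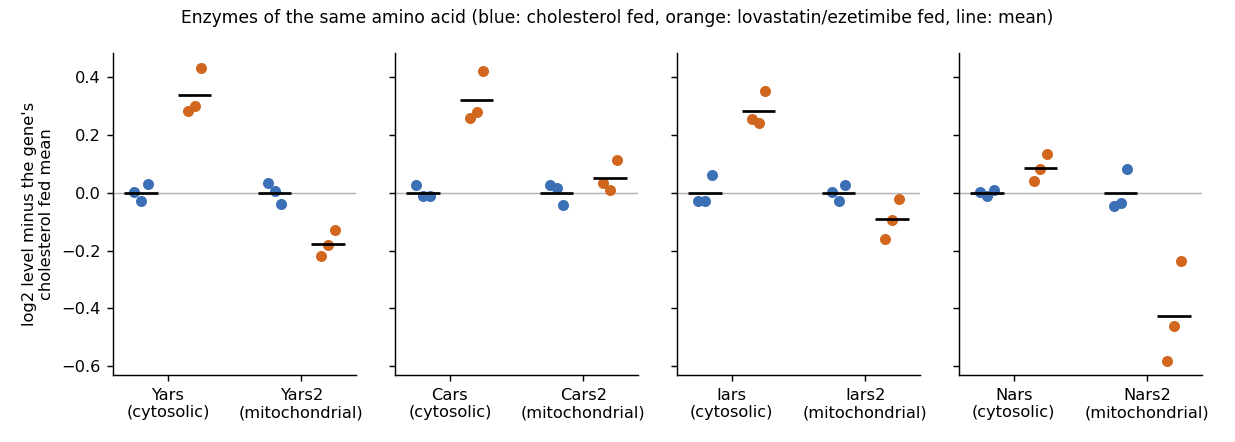
Log2 level on each array minus the gene's own mean over the cholesterol arrays, for the 4 pairs of cytosolic and mitochondrial enzymes (blue points, cholesterol arrays; orange points, lovastatin and ezetimibe arrays; lines, means). The orange means of the tyrosine pair lie at 0.34 and -0.18, and those of the asparagine pair at 0.08 and -0.43.

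Called genes were found in both structural classes of the enzymes. Synthetases fall into class I and class II by the fold of their catalytic domain. Of 19 class I genes (Eprs, which joins an enzyme of each class, was counted here) 3 were higher and 0 lower, and of 15 class II genes 1 was higher and 1 lower. The shares called, 15.8% and 13.3%, were near the 12.1% of all genes. Of the 7 measured enzymes of the multisynthetase complex, Eprs, Iars, Kars, Lars, Mars1, Qars and Rars, 1 was higher (14.3%) and 6 did not pass. The remaining 11 cytosolic genes held 3 that were higher (27.3%), beside 7.01% of all genes.

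The scaffolds of the complex did not pass. Aimp2 measured 8.91, 8.86 and 8.88 with cholesterol and 9.04, 9.04 and 9.02 with lovastatin and ezetimibe (log2 0.15, SE 0.05, n = 3; limma adjusted p = 0.0716). Aimp1 (log2 -0.07, SE 0.06) and Eef1e1 (0.00, SE 0.05) had overlapping groups.

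A list of 13 cytosolic synthetases that are often named as ATF4 targets was drawn up from general knowledge, and 12 of them were measured. The list was made with earlier results of these data known, so its count is not independent of them. On it, 4 of 12 genes were higher (33.3%), beside 7.01% of all genes, and the other 8, Eprs, Lars, Mars1, Nars, Sars, Tars, Vars and Wars, did not pass. The median of the 12 was log2 0.08, beside 0.03 for the 6 cytosolic genes off the list, of which 0 passed.

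Other ATF4 targets went in both directions, with 9 of 30 measured genes called higher (30%), 3 called lower (10%) and 18 not called. Of all genes, 7.01% were called higher and 5.08% lower. Their median was log2 0.16. Asns rose from 8.38, 8.30 and 8.45 to 9.34, 9.48 and 9.55 (log2 1.08, SE 0.07, n = 3; 2.12-fold; limma adjusted p = 4.75e-05). Ddit4, an inhibitor of the growth kinase complex mTORC1, rose by 0.98 (SE 0.05), the stress-response factor Atf3 by 0.81 (SE 0.12) and Slc3a2, the heavy chain of amino acid transporters, by 0.72 (SE 0.05). Chac1, which degrades glutathione and is a usual stress target of ATF4, fell by 0.36 (SE 0.05; limma adjusted p = 0.00398), and the stress genes Ddit3 (log2 -0.04, SE 0.06) and Trib3 (-0.09, SE 0.06) did not pass. The other lower genes, the glycine transporter Slc6a9 and Cth, an enzyme of cysteine synthesis, both lost their call without CH1, CH2, CH3 or LE2, which left 1 lower gene. Chac1, Ddit3, Trib3, Slc6a9 and Cth are named here after their values were seen. TGATGNAA was found in the windows of 8 of 27 genes of this list, beside 3.65% of the tested protein-coding genes with a window. The genes were listed as targets of a factor that binds this element, so the share is not independent of the list. It was not tested. The element was in 4 of the 8 higher genes that have a window (Asns, Atf3, Fgf21 and Jdp2). The other carriers, Chac1, Nupr1, Slc7a11 and Trib3, were not called higher. Of the higher carriers, Fgf21 lost its call when any 1 array was left out and Jdp2 without any 1 array other than CH2. Both lost it with the replicate block (limma adjusted p up to 0.127 and 0.160 over the alternatives). Fgf21 also lost it after centring, with the intensity trend and in the manner of cyberT, and Jdp2 with no pseudocount. The list held 6 higher genes without CH1 or LE3.

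In the remaining steps of charging and translation, few genes passed. Of 9 accessory proteins, among them the synthetase-like Tarsl2 and Aarsd1, the tRNA exporter Xpot and the enzymes of selenocysteine charging, 0 were higher and 1 was lower (11.1%, beside 5.08% of all genes). That was Trnt1, which adds the terminal CCA to transfer RNAs and fell by 0.28 (8.15, 8.21 and 8.32 against 7.98, 7.86 and 7.99; SE 0.06, n = 3; limma adjusted p = 0.0284). Its call was lost without any 1 array other than CH1 (adjusted p of 0.0558 to 0.0970) and with the replicate block (0.0526). Of 13 mitochondrial charging and translation factors 0 passed by limma and 2 had an unadjusted p under 0.05, with a median of log2 -0.07. Gfm2, a factor of mitochondrial ribosome recycling, had the smallest p (log2 -0.17, SE 0.05; limma adjusted p = 0.0658). Of 6 cytosolic elongation factors 0 passed and 0 had an unadjusted p under 0.05, and Eef2, which moves the ribosome along the message, had the smallest p (log2 0.06, SE 0.05).

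**Figure D4:**
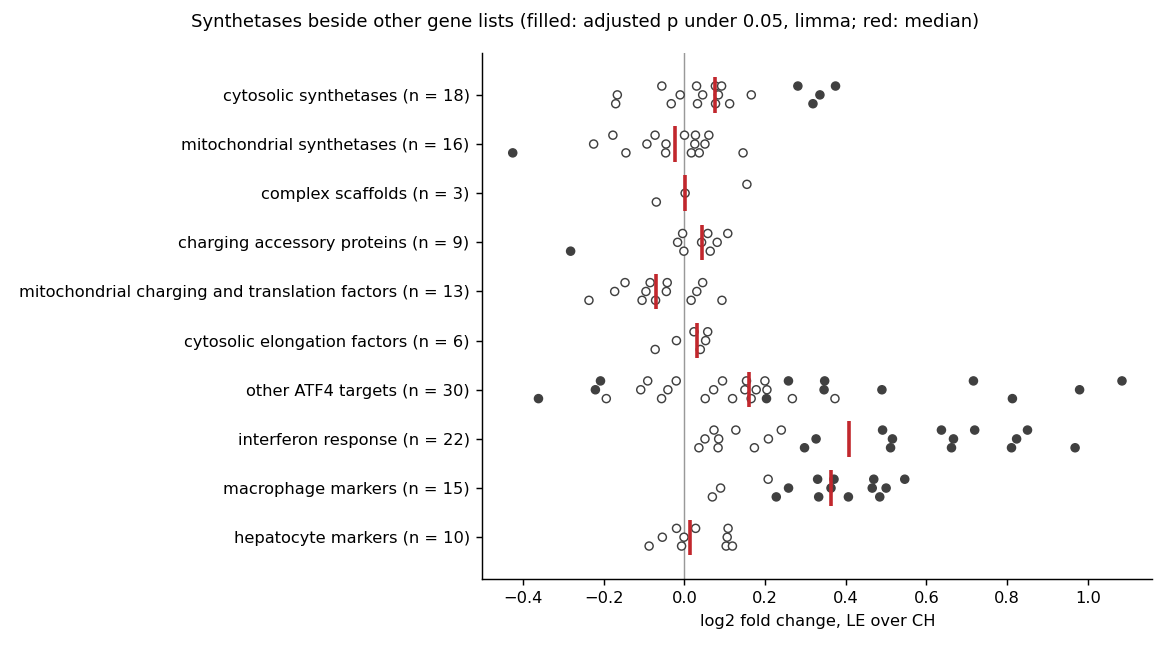
Log2 fold change of lovastatin and ezetimibe over cholesterol for the genes of each list, with filled points for a limma adjusted p under 0.05 and a red line at the list's median. The medians of the cytosolic and mitochondrial synthetases, 0.08 and -0.02, lie below those of the interferon (0.41) and macrophage (0.36) lists.

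Markers of other cell types bear on a bulk tissue, in which fewer cells of a type and less RNA per cell cannot be told apart. Of 10 hepatocyte markers 0 passed by limma (2 had an unadjusted p under 0.05), and their median was log2 0.01. Of 15 macrophage markers 12 rose (80%, median log2 0.36), beside 7.01% of all genes, led by Cd68 (0.55, SE 0.05). Cd5l, Mrc1 and Aif1 did not pass. Clec4f lost its call when any 1 array was left out and with the replicate block, and Vsig4 without LE2. The summed intensity of the 15 markers ran from 11839 to 12648 with cholesterol and from 15389 to 15783 with lovastatin and ezetimibe, with no marker at 0. Of 22 interferon-response genes 13 rose (59.1%, median log2 0.41), beside the same 7.01%, led by Usp18 (0.97, SE 0.06). Wars, the cytosolic tryptophan enzyme and a known interferon-induced gene, measured 8.88, 8.82 and 8.91 with cholesterol and 8.84, 8.94 and 8.98 with the drugs, overlapping (log2 0.05, SE 0.06; limma adjusted p = 0.70). Of 10 lymphocyte, 8 endothelial and 5 cholangiocyte markers 0 passed by limma (2, 3 and 1 had an unadjusted p under 0.05), and of 9 stellate and fibroblast markers Col3a1 was lower (log2 -0.19, SE 0.05), a call lost when any 1 array was left out. The part of these cell types in the changes of the synthetases was not tested.

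How many synthetases were called depended on how the variance was estimated. A test that borrows variance between genes of like level, in the manner of the cyberT program that the study names, called 11 of 34 synthetases, beside 18.8% of all genes, and limma with an intensity trend and a robust prior called 11, beside 17.7% of all genes. Both added Farsa and Tars2 as higher and Tars, Eprs, Yars2 and Hars2 as lower to the 5 genes of the main test. With either, 5 cytosolic genes were higher and 2 lower, and 1 mitochondrial gene was higher and 3 lower. Among all 19938 genes, 2068 were higher and 1678 lower in the manner of cyberT. With the trend, 1961 were higher and 1560 lower. Of all genes, 1398 were called higher and 1012 lower in the main test, against 1460 and 1598 after quantile normalisation, where Tars, Eprs, Yars2 and Lars2 joined the lower genes.

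**Figure D5:**
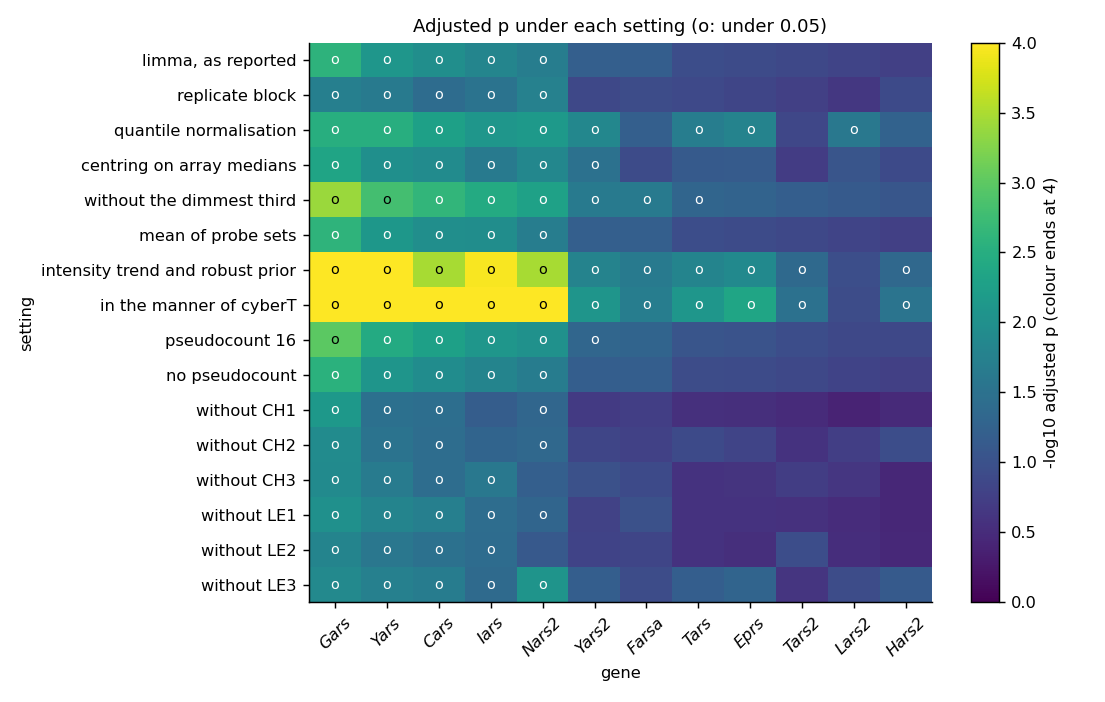
Adjusted p of the 12 synthetases called in at least 1 setting (columns) under each setting (rows), as -log10 in colour, with a circle where it is under 0.05. Gars, Yars and Cars have a circle in every row, Iars and Nars2 lack it in 2 rows each, and the other 7 genes have it in 1 to 6 rows.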

How the data were processed

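Total RNA from liver was hybridised to 6 arrays of the Affymetrix Mouse Gene 1.0 ST type. Per the labels' protocols the extraction used Trizol. The study's design text mentions Partek Genomics Suite and cyberT. The deposited intensities are linear, 1 per probe set, and how the authors corrected, normalised and summarised them is not given in the sources used here. Array medians were 158 to 163, and no array repeated another.

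Of 35556 probe sets, 21789 carried 1 gene symbol, 1621 several and 12146 none, and 21698 matched a RefSeq gene by identifier. The probe set with the highest mean was used for the 999 genes with more than 1. Values were log2(intensity + 1). The diets were compared with limma 3.58.1 in R 4.3.3 (lmFit, eBayes), two-sided. Python 3.11.15, pandas 2.3.3 and matplotlib 3.10.9 made tables and plots.

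In simulated arrays in which 200 of 19938 genes differed, limma called 65 of 67 genes that differed by 0.5 (log2). The noise was normal, with the variances that limma itself had estimated. Smaller differences were not simulated, and every synthetase changed by less than 0.5, so this count does not tell how often changes of their size are called.

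The members and the gene lists were chosen with earlier results of these data known. Members were named with values when called in any setting, when at either end of their compartment or of the levels, or as partners of a called gene; up to 4 called genes, or the 1 with the smallest p, were named per other list. The alternatives were a replicate block, quantile normalisation, centring on array medians, dropping the dimmest 33.3% of genes, the mean of probe sets, an intensity trend with robust prior, a test in the manner of cyberT, pseudocounts of 16 and none, and leaving out each array. The number of arrays limits the precision.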

Additional observations from a re-analysis of the deposited data

How the results depend on the processing

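Gars, Yars and Cars kept their direction and their call in all 15 alternatives. Iars lost its call without CH1 or CH2 and Nars2 without CH3 or LE2, and no other setting ended these calls. Leaving out 1 array gave 3 to 4 higher and 0 lower cytosolic genes, 0 higher and 0 to 1 lower mitochondrial genes, and 938 to 1126 higher and 525 to 893 lower genes in all. Lower cytosolic genes, 0 in the main test, numbered 2 after quantile normalisation, with the intensity trend and in the manner of cyberT, and 1 without the dimmest 33.3% of genes. Lower mitochondrial genes, 1 in the main test, numbered 3 after quantile normalisation, with the trend and in the manner of cyberT, and 2 after centring, without the dimmest 33.3% of genes and with a pseudocount of 16. Higher mitochondrial genes numbered 1 with the trend and in the manner of cyberT. Lower genes in all were 1598 after quantile normalisation, 1560 with the trend and 1678 in the manner of cyberT. Pars2, at -0.05 and not called, ran from -0.12 to 0.021 when 1 array was left out, and was above 0 without CH2 or LE1. The replicate numbers share only a number: the deviations of same-numbered arrays correlated at -0.02, -0.10 and 0.16. With the replicate block, 4 cytosolic genes were higher and 1 mitochondrial gene lower as before, and 1031 genes were higher and 657 lower. Other ATF4 targets, 9 higher and 3 lower in the main test, gave 15 higher with the trend and in the manner of cyberT. They gave 16 higher without the dimmest 33.3% of genes, and 1 lower with the block. Higher calls grew over all genes too, from 1398 of 19938 to 1961 with the trend and 2068 in the manner of cyberT. Without the dimmest 33.3% of genes they were 1797 of 13292. The 1 lower accessory protein, Trnt1, was not called with the block. Aimp2 was called higher without the dimmest 33.3% of genes, with the trend and in the manner of cyberT. Lower mitochondrial factors, 0 in the main test, numbered 1 after centring, 2 after quantile normalisation, without the dimmest 33.3% of genes and with the trend, and 3 in the manner of cyberT. The cause of these shifts was not tested.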
